A study of Mus musculus with 18 samples.

Results

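The genes described here are 8 genes of motor neurons and of cholinergic transmission: Chat, Slc5a7, Slc18a3, Ache, Mnx1, Isl1, Chodl and Uts2. They were picked by name as a reading of ventral tissue in a dorsal horn dissection. All 8 names were found among the 55573 genes of the count table, and all 8 passed the filter on low counts in every comparison.

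The 18 libraries were made from dorsal horn tissue of the mouse spinal cord (DHSC), taken on the side of the injected paw. They fall into a group of 6 males and groups of 6 females each, named F1/proestrus and F2/metestrus. The animals were adult C57BL/6J mice, and every one of them had received 2% formalin in a hind paw 2 h before dissection. The females were sorted by their behavior in the interphase of the formalin test and by their stage of the estrus cycle. All groups shared the injection, so no comparison here is against an uninjected animal.

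Motor neurons sit in the ventral horn of the spinal cord and release acetylcholine onto muscle. Acetylcholine is made from choline by one enzyme, packed into vesicles by a transporter, cleaved after release by acetylcholinesterase, and its choline is taken back up by another transporter. The dorsal horn, which receives pain fibers, holds few cholinergic neurons, and its own interneurons are mostly glutamatergic or GABAergic. In bulk tissue, fewer cells of a type and less RNA per cell cannot be told apart.

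Chat encodes choline acetyltransferase, the enzyme that makes acetylcholine, and lies on the minus strand at chr14:32408203-32465989 (GRCm38, with 17 exon blocks). Slc18a3 encodes the vesicular acetylcholine transporter and is a gene of 1 exon at chr14:32462438-32464850. It sits inside Chat on the same strand, between the first exon block of Chat and the next, the arrangement known as the cholinergic locus, and the genes share 0 exonic bases. Their RefSeq start sites are 1059 bases apart. Slc5a7, the high-affinity choline transporter, is on the minus strand at chr17:54273590-54299034 and overlaps no other gene. Ache, acetylcholinesterase, is on the plus strand at chr5:137287519-137294466. It shares 98 exonic bases with the antisense RNA Gm42456, which had 10 to 28 counts per library against at least 22200 for Ache.

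The promoters of these 4 genes are printed because Chat, Slc18a3 and Slc5a7 varied together between samples while Ache varied little. Each runs from 250 bases before to 50 bases after the start site given by RefSeq on GRCm38.p6, 5′ to 3′ on the gene's own strand, and capitals mark the E-box CANNTG.
Chat, chr14:32465860-32466159, minus strand: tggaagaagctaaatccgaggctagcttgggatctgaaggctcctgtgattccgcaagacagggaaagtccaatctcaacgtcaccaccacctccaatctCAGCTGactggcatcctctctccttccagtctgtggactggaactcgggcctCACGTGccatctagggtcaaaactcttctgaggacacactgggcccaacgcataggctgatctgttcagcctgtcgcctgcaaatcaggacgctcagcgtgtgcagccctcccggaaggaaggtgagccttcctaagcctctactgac
Slc18a3, chr14:32464801-32465100, minus strand: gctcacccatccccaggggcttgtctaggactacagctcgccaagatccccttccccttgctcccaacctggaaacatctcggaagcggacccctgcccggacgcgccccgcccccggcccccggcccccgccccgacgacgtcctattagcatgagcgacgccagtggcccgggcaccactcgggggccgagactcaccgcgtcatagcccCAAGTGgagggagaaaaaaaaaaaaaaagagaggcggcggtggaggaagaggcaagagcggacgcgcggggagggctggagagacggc
Slc5a7, chr17:54298985-54299284, minus strand: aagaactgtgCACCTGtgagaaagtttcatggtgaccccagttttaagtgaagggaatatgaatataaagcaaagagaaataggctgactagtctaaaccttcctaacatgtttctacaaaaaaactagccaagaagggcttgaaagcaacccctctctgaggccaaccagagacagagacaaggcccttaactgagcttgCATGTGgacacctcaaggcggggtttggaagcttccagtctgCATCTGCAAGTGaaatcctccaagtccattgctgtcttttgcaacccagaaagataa
Ache, chr5:137288004-137288303, plus strand: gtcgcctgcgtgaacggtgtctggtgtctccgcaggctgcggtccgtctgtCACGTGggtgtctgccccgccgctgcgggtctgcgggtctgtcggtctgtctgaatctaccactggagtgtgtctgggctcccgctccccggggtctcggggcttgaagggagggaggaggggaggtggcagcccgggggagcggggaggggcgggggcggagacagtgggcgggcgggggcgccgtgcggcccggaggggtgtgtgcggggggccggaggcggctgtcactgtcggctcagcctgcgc
The E-box reads the same on both strands. It occurred 2 times in the Chat window, 1 time in that of Slc18a3, 4 times in that of Slc5a7 and 1 time in that of Ache, and 72.3% of 32851 promoters of this length hold it. The homeodomain core TAAT, searched on both strands, was in the windows of 5 of the 8 genes (Slc18a3, Mnx1, Isl1, Chodl and Uts2), while 58.0% of all promoters hold it. The longer form TAATTA, which holds the core on both strands, was in none of the 8 windows and in 5.29% of all promoters. GC content ranged from 43.3% in the Uts2 window to 74.0% in that of Ache.

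The other 4 genes mark motor neurons. Mnx1 (chr5:29473034-29478470, minus strand) and Isl1 (chr13:116298281-116309689, minus strand) encode homeodomain factors that specify motor neurons, and Isl1 is also made by sensory ganglion neurons and some dorsal interneurons. Chodl (chr16:78930948-78951733, plus strand) encodes chondrolectin, a marker of fast motor neurons. Uts2 (chr4:150997097-151001810, plus strand) encodes the peptide urotensin 2, lies within Camta1 on the opposite strand and shares 0 exonic bases with it.

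Total counts per library ranged from 73590509 to 125724156, so that 3 counts, the smallest number taken here as detection, stood for 0.0240 to 0.0407 counts per 1000000 (CPM). Intervals and floors of this kind cover counting error only. By their numbers the libraries form a low-numbered first series and a high-numbered second one, each with 9 samples, 3 of every group. The markers of dorsal horn neurons were present in all samples (19 genes, summed 585 to 1121 CPM), with Ptf1a at or near 0. A pair of libraries stood apart. F1/proestrus 5 had 522 CPM of 9 sensory ganglion genes, while the remaining 17 libraries had 5.89 to 9.83 CPM, and male 5 had the highest sum of 6 Schwann cell genes (2514 CPM, with 784 as the lowest of all samples). Some of the results that rest on them, but not all, are also given without them.

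Compared per length, as reads per kilobase of annotated exon and per 1000000 counts (RPKM), Ache was the most abundant of the 8, with a mean of 63.0 RPKM over the 18 samples. Slc18a3 followed with 15.1 RPKM. Uts2 (5.25 RPKM), Slc5a7 (4.77), Chodl (4.17) and Chat (3.70) came next, and neighbours in that order differed by less than their spread between samples. Isl1 (0.611 RPKM) and Mnx1 (0.450) were lowest, also within each other's spread.

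The genes that make, load and recover acetylcholine differed several-fold between samples within the F1/proestrus and male groups. Within F2/metestrus females the highest sample was 1.42 times the lowest for Chat, 1.26 times for Slc5a7 and 1.66 times for Slc18a3. Chat ranged from 6.99 to 28.4 CPM in F1/proestrus females (median 17.8, mean 17.0 ± 8.44 SD, n = 6). In F2/metestrus females it ranged from 18.3 to 26.1 CPM (median 19.7, mean 20.8 ± 2.85 SD, n = 6), and in males from 4.14 to 23.4 CPM (median 13.5, mean 14.5 ± 7.16 SD, n = 6). The ranges of the 3 groups overlapped, and the low values lay in the F1/proestrus and male groups: 4.14 CPM in male 5, 6.99 in F1/proestrus 2, 8.43 in F1/proestrus 6 and 10.5 in male 6. The coefficient of variation of Chat was 49.7% in F1/proestrus females, 13.7% in F2/metestrus females and 49.5% in males, and the difference in spread was not tested.

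Slc5a7 ranged from 8.89 to 39.3 CPM in F1/proestrus females (median 27.8), from 31.0 to 39.0 in F2/metestrus females (median 35.1) and from 6.17 to 35.5 in males (median 19.7). Its group means were 25.6 ± 13.7, 35.4 ± 2.74 and 19.8 ± 10.5 CPM (SD, n = 6 each). The transporter of choline was thus at 31.0 CPM or more in every F2/metestrus sample and at 11.8 CPM or less in male 5, F1/proestrus 2, F1/proestrus 6 and male 6.

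Slc18a3 ranged from 8.18 to 63.5 CPM in F1/proestrus females (median 37.2), from 35.7 to 59.2 in F2/metestrus females (median 42.8) and from 5.63 to 52.7 in males (median 26.0). The group means were 35.4 ± 20.8, 44.8 ± 7.96 and 29.2 ± 17.4 CPM (SD, n = 6 each). Its highest level over the 18 samples was 11.3 times its lowest, against 6.85 times for Chat and 6.37 times for Slc5a7. Again the 4 lowest samples were male 5 (5.63), F1/proestrus 2 (8.18), F1/proestrus 6 (16.6) and male 6 (18.9).

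Ache, whose product cleaves acetylcholine and which many kinds of neuron make, varied little. It ranged from 261 to 310 CPM in F1/proestrus females, from 266 to 345 in F2/metestrus females and from 247 to 346 in males. Medians were 296, 289 and 274 CPM, and the coefficient of variation over the 18 samples was 10.4%. The groups overlapped over most of their range, and only male 5 and F1/proestrus 2 were among the 4 lowest both for Ache and for Chat.

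Of the motor neuron genes, Mnx1 ranged from 0.142 to 1.98 CPM in F1/proestrus females (median 1.05), from 0.990 to 2.10 in F2/metestrus females (median 1.31) and from 0.0890 to 1.56 in males (median 0.591). These are low counts: male 5 had 8 reads of Mnx1, or 0.0890 CPM with an exact 95% Poisson interval of 0.0384 to 0.175. Chodl ranged from 4.95 to 38.3 CPM in F1/proestrus females (median 21.3), from 26.9 to 35.1 in F2/metestrus females (median 30.7) and from 3.02 to 36.1 in males (median 15.5). Both genes were lowest in the same 4 samples as Chat.

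Uts2 had the widest relative range of the 8, 49.6-fold between its lowest and highest sample. It ranged from 0.214 to 5.81 CPM in F1/proestrus females (median 2.92), from 3.04 to 6.07 in F2/metestrus females (median 4.01) and from 0.122 to 3.51 in males (median 1.65). The lowest value, in male 5, came from 11 reads (exact 95% Poisson interval 0.0611 to 0.219 CPM).

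Isl1 followed another order. It ranged from 1.19 to 12.0 CPM in F1/proestrus females (median 1.63), from 1.61 to 2.60 in F2/metestrus females (median 1.82) and from 1.61 to 2.33 in males (median 1.73). A single library, F1/proestrus 5, held the 12.0 CPM, and the other 17 samples lay between 1.19 and 2.69. In that library Isl2, another islet factor, stood at 29.5 CPM against at most 2.24 elsewhere, and Prph, which encodes peripherin, at 203 CPM against at most 57.5. The part of the sensory ganglion genes in the Isl1 value was not tested.

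**Figure D1:**
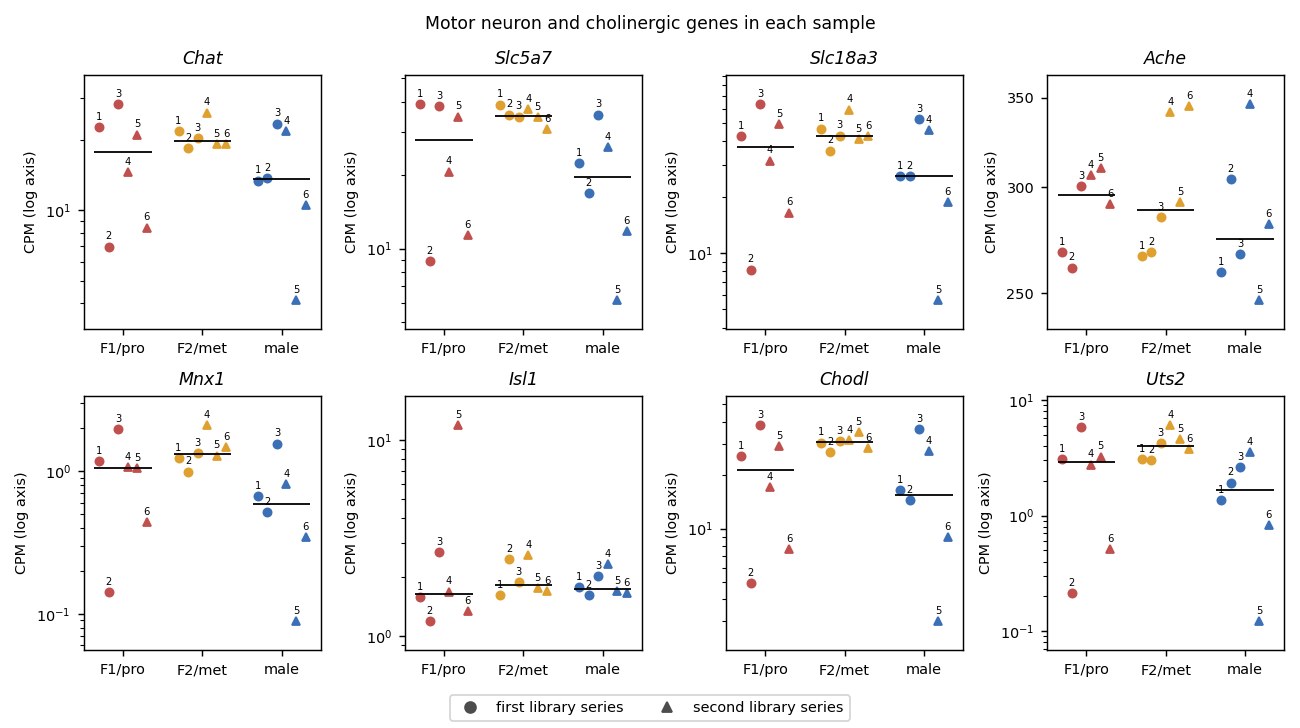
Level of each of the 8 genes in the 18 samples, in CPM on a log axis that does not start at 0; numbers are replicate numbers, circles the first library series, triangles the second, and lines the group medians. Male 5, F1/proestrus 2, F1/proestrus 6 and male 6 are lowest for 6 genes, Ache stays between 247 and 346 CPM, and Isl1 is high in F1/proestrus 5.

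For 6 of the 8 genes (Chat, Slc5a7, Slc18a3, Mnx1, Chodl and Uts2) the 4 lowest samples were the same: male 5, F1/proestrus 2, F1/proestrus 6 and male 6. Of all 24862 genes tested, 78 (0.314%) had these 4 samples lowest, the members included. Both library series and both sexes were among the 4. The pattern was noticed in the data. At the other end, F1/proestrus 3 and F2/metestrus 4 were the highest pair for Chat, Slc18a3, Mnx1 and Uts2.

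**Figure D2:**
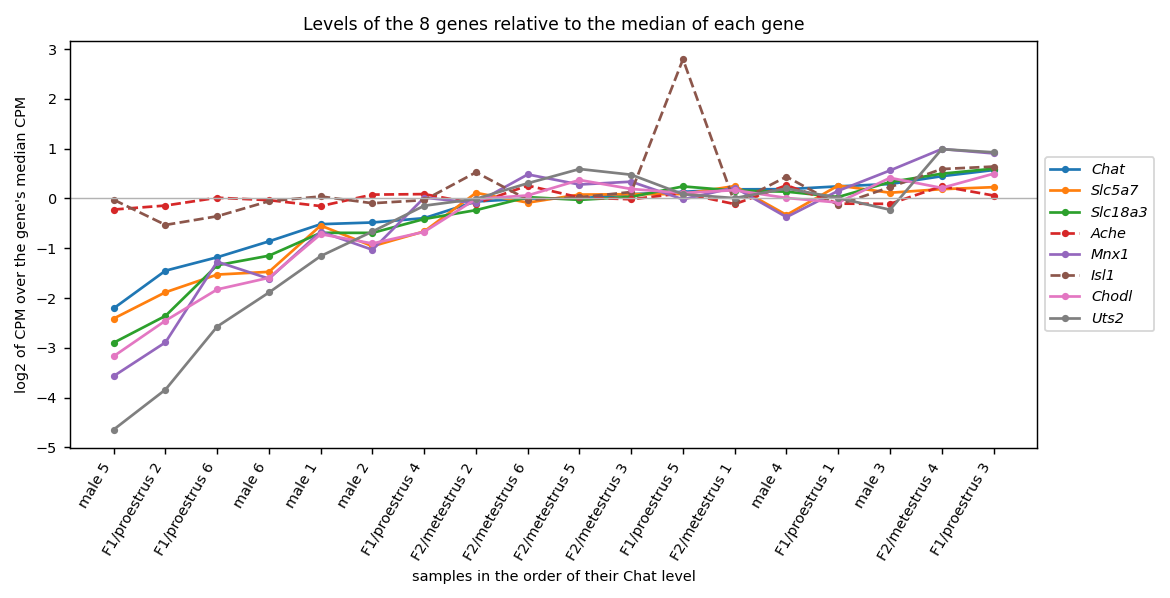
The log2 ratio of each gene's CPM to that gene's median over the 18 samples, with samples in the order of their Chat level; dashed lines are Ache and Isl1. The 6 solid lines fall together toward male 5 on the left, Uts2 the furthest, while Ache stays close to 0 and Isl1 peaks in F1/proestrus 5.

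Between samples, the spread of these genes was large for this tissue. The SD of log2 CPM was 0.73 for Chat, 0.84 for Slc5a7, 0.96 for Slc18a3, 1.07 for Chodl, 1.18 for Mnx1 and 1.55 for Uts2, against a median of 0.21 over 24862 genes. Of all genes, 93.1% varied less than Chat and 99.8% less than Uts2. Ache (SD 0.15) varied more than only 30.9% of genes. Isl1 (SD 0.71) exceeded 92.5% of genes, with the single high library included.

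The 6 genes were grouped after their shared lowest samples were seen in these data, so their correlations are not separate support for the grouping. Every pair of the 6 was correlated. Over the 18 samples and 15 pairs, Pearson's r of log2 CPM was 0.942 to 0.989 and Spearman's rho 0.707 to 0.967. Every one of these r had a permutation p of 1e-05, the smallest that 100000 resamples can give, and 1.87e-05 after adjustment over all 28 pairs of the 8 genes. The adjusted permutation p of rho was at most 0.0028. Permutations were drawn over all 18 samples, across groups and library series. The highest r joined Chat and Slc18a3, the neighbours of the cholinergic locus (0.989). Without the 2 samples farthest from the median the 15 values were 0.875 to 0.988, and within either library series 0.921 to 0.996.

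Ache and Isl1 were tied to the others less closely. The 7 pairs with Ache had r of 0.315 to 0.570 (adjusted permutation p 0.0218 to 0.215, n = 18), and 2 of them, with Slc18a3 and Uts2, passed. Without male 5 and F1/proestrus 2, r of Ache and Slc18a3 went from 0.528 to 0.265. Without male 4 and F2/metestrus 6, the samples farthest from the Ache median, r of Ache and Uts2 went from 0.570 to 0.580. The pair of Ache and Chat did not pass (adjusted permutation p = 0.0574). Its r was 0.485 over all samples and 0.198 without male 5 and F1/proestrus 2. Within the library series, between which Ache differed, r of Ache and Chat was 0.317 in the first and 0.882 in the second. The pair of Isl1 and Chat had r = 0.398 (adjusted permutation p = 0.111) and rho = 0.573 (adjusted permutation p = 0.0192), and r was 0.631 without F1/proestrus 5.

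**Figure D3:**
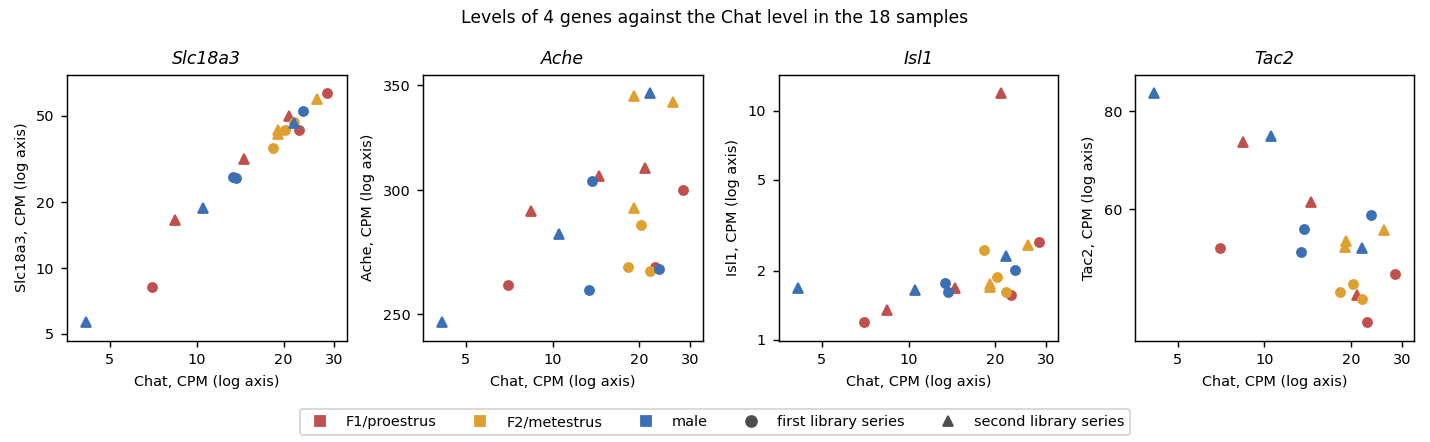
CPM of Slc18a3, Ache, Isl1 and the dorsal horn gene Tac2 against CPM of Chat in the 18 samples, on log axes; colors are groups, circles the first and triangles the second library series. Slc18a3 rises with Chat along a line, Ache rises little, Isl1 has 1 sample at 12.0 CPM, and Tac2 is highest (84.5 CPM) in the sample lowest in Chat.

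Among the 24861 other genes, Slc18a3 was the most like Chat across the samples (r = 0.989). Chodl ranked 4, Slc5a7 ranked 5, Uts2 ranked 7 (r = 0.965) and Mnx1 ranked 9 (r = 0.955), whereas Ache ranked 1597 and Isl1 2729. The 5 genes outside the set with the highest r were Slc10a4 (0.988), a carrier-like protein of cholinergic vesicles, Kcnj14 (0.980), an inward rectifier potassium channel, Kcng4 (0.965), a modifying subunit of potassium channels, the predicted gene Gm5522 (0.963) and Grin3b (0.952), an NMDA receptor subunit known from motor neurons. These values are descriptions over 18 samples, and all genes of a sample share its library and depth.

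To ask which genes were higher where Chat was higher within a group and library series, the log2 CPM of Chat was put into the edgeR model with group and series. Of the 7 other genes, 5 were called at a false discovery rate (FDR) of 5%, all of them higher with more Chat. Of 26793 genes, 110 (0.411%) were called in either direction, 103 (0.384%) higher and 7 (0.0261%) lower. Per log2 unit of Chat, Uts2 rose by 1.98 ± 0.161 log2 units (SE, adjusted p = 6.85e-07), Mnx1 by 1.53 ± 0.148 (adjusted p = 5.77e-06) and Chodl by 1.39 ± 0.0751 (adjusted p = 1.26e-09).

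The vesicular transporter Slc18a3 rose by 1.33 ± 0.0516 log2 units per unit of Chat (SE, edgeR adjusted p = 1.02e-11), the smallest p of all genes. The choline transporter Slc5a7 rose by 1.01 ± 0.0672, in step with Chat itself (edgeR adjusted p = 3.01e-08). The 95% intervals of Uts2 (1.64 to 2.32), Mnx1 (1.22 to 1.84), Chodl (1.24 to 1.55) and Slc18a3 (1.22 to 1.43) lay above 1, that is, above a change equal to that of Chat, and that of Slc5a7 (0.87 to 1.15) included it.

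Ache and Isl1 were not called. Ache had 0.12 ± 0.0354 log2 units per unit of Chat (SE, edgeR adjusted p = 0.189), with a 95% interval of 0.05 to 0.19, below the interval of each of the 5 called genes. Isl1 had 0.63 ± 0.247 (edgeR adjusted p = 0.366), and 0.31 without F1/proestrus 5 (edgeR adjusted p = 0.224). The median of the 7 genes was 1.33, beside -0.01 over all genes tested. The 5 calls stood within each library series alone and without male 5 and F1/proestrus 5 together.

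Other genes known from motor neurons partly followed Chat. Of 18, 10 rose with it by the same test and 0 fell, with a median of 0.34. They were Nefh, the heavy neurofilament chain (0.44 ± 0.0380, adjusted p = 1.41e-06), Vipr2, a receptor of vasoactive intestinal peptide (1.16 ± 0.108, adjusted p = 3.66e-06), the calcitonin gene-related peptide genes Calcb (1.75) and Calca (1.21), Prph (1.62), the protease gene Mmp9 (0.30), the homeodomain genes Lhx3 (0.52), Lhx4 (0.78) and Isl2 (2.22), and Ret (0.38), a receptor of the GDNF family. Several of these calls were near the threshold. Isl2 had an SE of 0.483 and an edgeR adjusted p of 0.0488, and Calca, Lhx3, Lhx4 and Ret had an edgeR adjusted p of 0.0350 to 0.0434. Calca, Calcb, Prph, Ret and Isl2 are also made by sensory ganglion neurons. The count was 10 without F1/proestrus 5 and 9 without it and male 5, but 6 without male 5 alone and 5 without F1/proestrus 2, F1/proestrus 6 or male 3. It was 7 in the first library series alone and 3 in the second.

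Of 9 further genes of acetylcholine and choline handling, 2 rose with Chat: Slc10a4 (1.42 ± 0.0728 log2 units per unit of Chat, SE, edgeR adjusted p = 7.71e-10) and Acly, which makes the acetyl-CoA of the cytosol (0.31 ± 0.0439, edgeR adjusted p = 0.0011). Slc10a4 ranged from 1.90 CPM in male 5 to 31.4 in F1/proestrus 3, the same extremes as Chat. The other 7, among them the cholinesterase anchors Prima1 (0.10) and Colq (0.24), were not called. Within the second library series alone Acly had 0.36 (edgeR adjusted p = 0.115), and within the first 0.23 (edgeR adjusted p = 0.0525).

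Of 17 genes of ventral and deep interneurons, 1 rose with Chat, Foxp2 (0.40 ± 0.0755, edgeR adjusted p = 0.0161). The median of the 17 was 0.33, and 16 had a positive estimate, beside 12650 of all 26793 genes. Examples that were not called are En1, a V1 interneuron factor (0.55, edgeR adjusted p = 0.0605) and Shox2 (0.37, edgeR adjusted p = 0.0864). The count was 0 without male 5, 0 without F1/proestrus 2, and 0 without male 5 and F1/proestrus 5 together.

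Of 18 dorsal horn genes tested, 0 were called by edgeR. All 18 had a negative estimate, with a median of -0.15, while 12650 of all 26793 genes had a positive one. The 18 were measured in the same samples, so their signs and p-values are not independent. Male 5, lowest in Chat, had the highest summed dorsal horn list (1121 CPM). Of the 18, 12 had an unadjusted p under 0.05, beside 2884 of all 26793 genes. DESeq2 called 3 dorsal horn genes lower, but over all genes it called 545 in either direction, against 110 by edgeR. The smallest p belonged to Tac2, which encodes neurokinin B (-0.20 ± 0.0466, edgeR adjusted p = 0.0624), and Nmu, neuromedin U, had -0.33 (edgeR adjusted p = 0.0864). Tac2 stood at 84.5 CPM in male 5, the lowest sample in Chat, and at 43.0 CPM in F1/proestrus 1. Of the 8 tested sensory ganglion genes, 6 Schwann cell genes and 6 ependymal genes, edgeR called 0 in each list, with 2, 1 and 0 at an unadjusted p under 0.05. Their part in the association with Chat was not tested. Genes lower with more Chat, by the smallest p, included Pdzd2 (-0.25), Camk2a (-0.22), Bmp3 (-0.30) and Slc30a10 (-0.19).

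**Figure D4:**
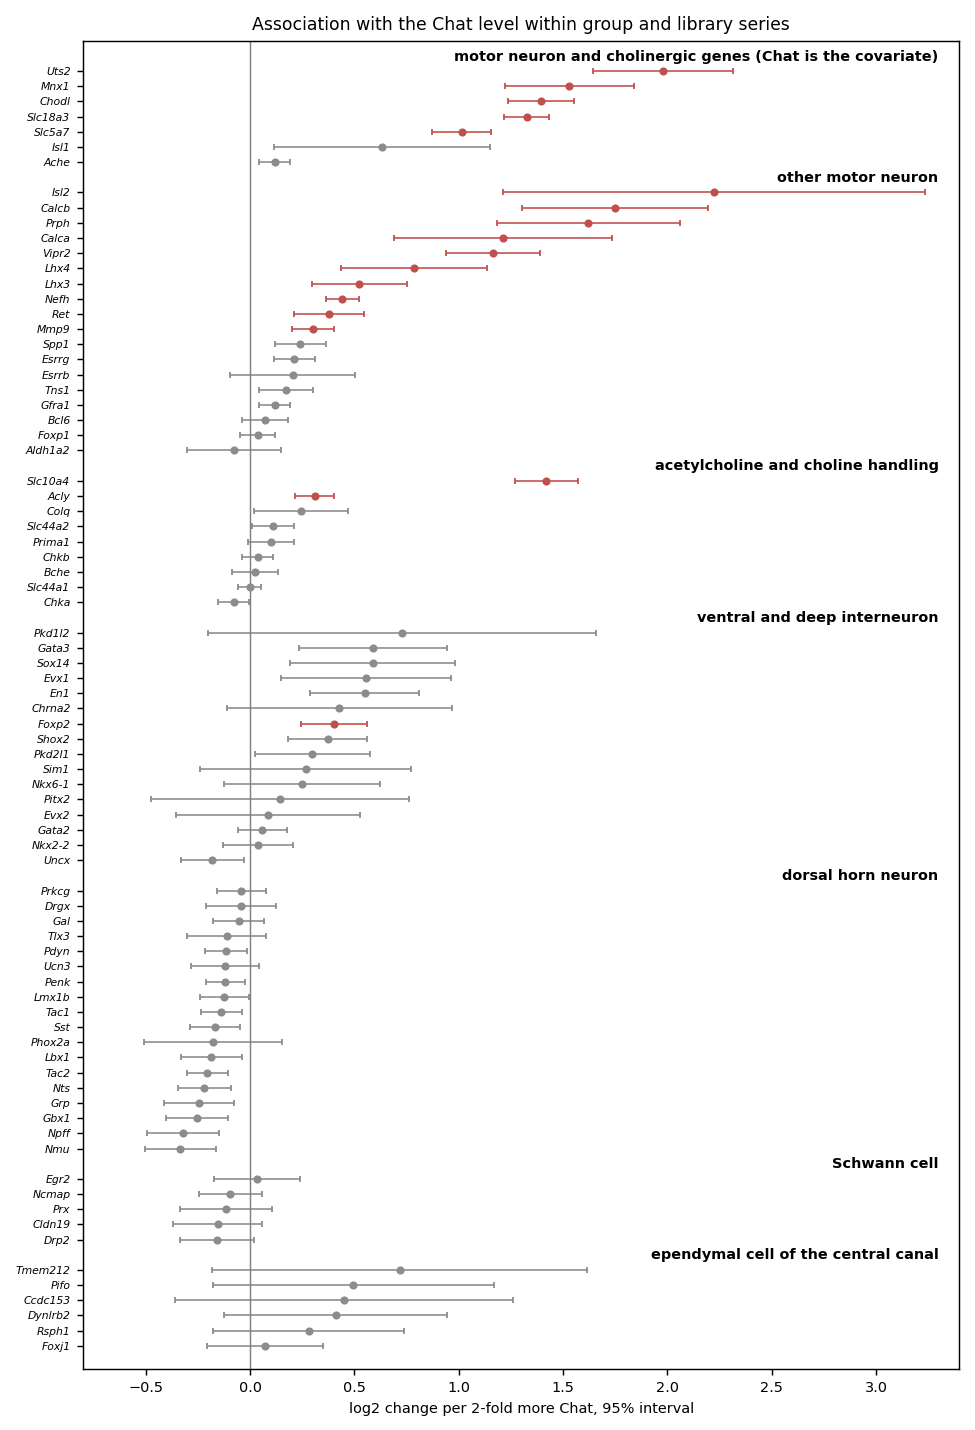
Change of the listed genes in log2 units per log2 unit of Chat, from the edgeR model with group and library series, with 95% intervals; red marks an FDR under 5%. Of the 8 genes, Uts2, Mnx1, Chodl, Slc18a3 and Slc5a7 lie at 1.01 or above, Ache lies at 0.12, and the dorsal horn genes lie below 0; sensory ganglion genes, which were high in 1 library, are left out of the plot.

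The comparison of the 2 female groups asked whether estrus stage and interphase behavior went with a difference in the DHSC. None of the 8 genes was called by edgeR, and none had an unadjusted edgeR p under 0.05. DESeq2 gave a p-value for only 7 of the 8 and called 0 of them. Over all 24042 genes, edgeR called 0 (0%), with 596 at an unadjusted p under 0.05, and DESeq2 called 2. F2/metestrus minus F1/proestrus, the fitted log2 changes were 0.29 ± 0.271 for Chat, 0.47 ± 0.298 for Slc5a7, 0.34 ± 0.347 for Slc18a3 and 0.05 ± 0.0734 for Ache (SE, every edgeR adjusted p = 0.99998). Mnx1 had 0.53, Chodl 0.58 and Uts2 0.67, and their 95% intervals reached down to -0.34, -0.19 and -0.42. The median of the 8 was 0.40, with all but Isl1 above 0, beside -0.0004 over all genes. Since most of these genes varied together between samples, their signs are not independent. Isl1 had -0.77, and 0.24 without F1/proestrus 5.

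Leaving out F1/proestrus 2, the lowest female sample in these genes, brought the estimate of Chat to 0.13 and that of Slc18a3 to 0.13. Within the library series, Chat had 0.06 in the first and 0.55 in the second, and Slc5a7 had 0.34 and 0.62. The 95% interval of Chat over the 12 females ran from -0.29 to 0.87 on the log2 scale.

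The comparison of males with the 12 females addressed sex differences 2 h after formalin. None of the 8 genes was called by edgeR or DESeq2, and none had an unadjusted edgeR p under 0.05, beside 49 of 24862 genes (0.197%) called. All 8 estimates were below 0, with a median of -0.54 beside -0.0013 over all genes. Chat, Slc5a7, Slc18a3, Mnx1, Chodl and Uts2 varied together between samples (r of 0.942 to 0.989), so these signs are not independent. Males minus females, Slc5a7 had -0.62 ± 0.321 (SE, edgeR adjusted p = 0.538), Mnx1 -0.83 ± 0.439 (edgeR adjusted p = 0.542), Uts2 -0.97 ± 0.530 (edgeR adjusted p = 0.557) and Chat -0.38 ± 0.291 (edgeR adjusted p = 0.671).

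Slc18a3 had -0.46, Chodl -0.52, Ache -0.05 and Isl1 -0.56, the last with -0.01 without F1/proestrus 5. Without male 5 the estimates of Chat, Slc18a3 and Uts2 were -0.20, -0.25 and -0.74. In the same comparison 2 of 18 dorsal horn genes rose in males, Penk (0.63 ± 0.0850, edgeR adjusted p = 0.000449), which encodes the enkephalin precursor, and Grp (0.92 ± 0.149, edgeR adjusted p = 0.00539), gastrin-releasing peptide. The summed dorsal horn list was 782 to 1121 CPM in males, 585 to 897 in F1/proestrus and 603 to 742 in F2/metestrus females. The summed Schwann cell list was 1123 to 2514 CPM in males, 784 to 1422 in F1/proestrus and 840 to 1146 in F2/metestrus females, and 1 of its 6 genes was called higher in males, Ncmap (0.67 ± 0.111, edgeR adjusted p = 0.00654). The part of these markers in the estimates of the 8 genes was not tested. With the Chat level as a further term, 36 genes were called between the sexes in place of 49. Leaving out a single sample could move this count further, and the part of Chat in the change was not tested.

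Between the library series, 1 of the 8 genes was called, Ache, beside 26.9% of 25180 genes, so a single call is below the share of all genes. Ache ranged from 259 to 304 CPM in the first series (median 268) and from 247 to 346 in the second (median 306). The ranges overlapped, and the second series was higher by 0.16 ± 0.0572 on the log2 scale with group in the model (SE, edgeR adjusted p = 0.0487). The call was lost with DESeq2's size factors, with no filter on low counts, and in 12 of 18 fits that left out 1 sample (all but those without F1/proestrus 3 or 6, F2/metestrus 3 or 5, or male 2 or 5). Of the other 7 genes, Slc5a7 had -0.40 (edgeR adjusted p = 0.314), Isl1 0.53 (edgeR adjusted p = 0.290) and Chat -0.26 (edgeR adjusted p = 0.531). Of 18 dorsal horn genes, 11 were higher in the second series, and 7 without male 5 and F1/proestrus 5.

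**Figure D5:**
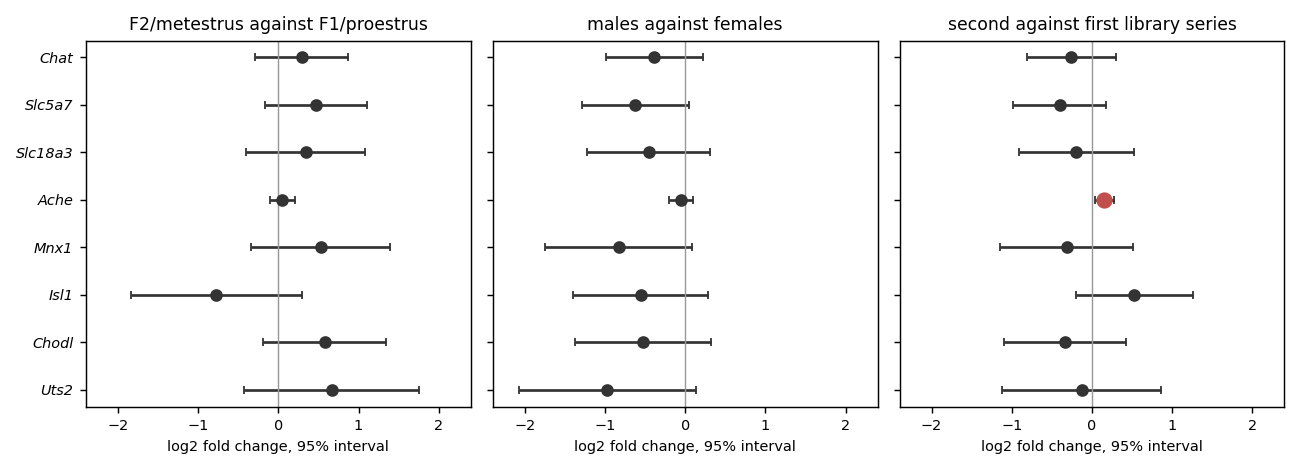
Fitted log2 fold change of the 8 genes with 95% intervals between the female groups, between the sexes and between the library series; the large red point is the only one past an FDR of 5% (Ache, 0.16, between the series). Every other interval includes 0, and those of Uts2 and Mnx1 are among the widest.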

How the data were processed

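Per the labels, full-length cDNA was made from polyA RNA of the DHSC with a SMART-Seq v4 kit and tagmented with Nextera XT. The study's methods name another kit. The authors mapped reads to mm10 with Subread and deposited raw counts per gene from featureCounts, without normalization. The submitters' processing notes give Subread 2.0.3 and bcl2fastq 2.20.0.422. Whether strand was used in counting is not given in the sources used here. The authors also deposited fold changes and p-values of one comparison made with DESeq2, of which only the gene symbols were used. Symbols were paired with 53648 of 55573 identifiers, and 55394 identifiers were found in GENCODE vM21 (GRCm38), which gave coordinates and exon lengths.

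The 8 genes and all gene lists were chosen with earlier results of these data known. The named genes are the 8, up to 4 genes of each other list by the smallest p in each comparison, the 5 other genes most correlated with Chat, and the 5 genes with the smallest p in each direction of the association with Chat. Other genes of a list that were called are named because they were called, after their values were seen. Some single genes of the lists are not reported here, but they stay in the counts.

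Counts were filtered with filterByExpr (minimum count 10, minimum total 15), scaled by TMM and tested with edgeR 4.0.16 (glmQLFit and glmQLFTest, R 4.3.3). P-values are two-sided, Benjamini-Hochberg adjusted over all genes tested, with an FDR of 5%. Fold changes are on the log2 scale, CPM use TMM-scaled library sizes, and correlations use log2 CPM with a prior count of 2. Correlation tests drew 100000 permutations. Interactions of library series with each contrast were fitted in the same way, and none of the 8 genes passed (smallest edgeR adjusted p = 0.970). Scripts were tested on simulated data. The study's methods call the samples of a group biological replicates. Replicate numbers were checked for pairing across groups: deviations of same-numbered samples correlated at -0.105 to 0.228, over 0.1 in 9 of 18 pairs, and at -0.111 to 0.132 within library series. The numbers were therefore not treated as pairs. Alternatives were DESeq2 1.42.0, its size factors, no filter on low counts, other covariates, each library series alone and leaving out single samples. The RefSeq promoter table (GRCm38.p6) held all 8 genes.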

Additional observations from a re-analysis of the deposited data

Results flagged for a closer look

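Isl1 in F1/proestrus 5, at 12.0 CPM, lay far from the other 5 samples of its group, which ranged from 1.19 to 2.69 CPM. It was the only one of 24 sets of 6 values (8 genes in 3 groups) whose extreme sample passed Dixon's 95% critical value, and chance flags about 1 set in 20. The same library held 522 CPM of 9 sensory ganglion genes, while the remaining 17 had 5.89 to 9.83 CPM. The part of those genes in the Isl1 value was not tested.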

How the results depend on the processing

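The counts of called genes among the 8 were 0 between the female groups, 0 between the sexes and 5 for the association with Chat under every alternative run. DESeq2 gave a p-value for only 7 of the 8 between the female groups. Between the library series the count of 1 (Ache) was 0 with DESeq2's size factors in edgeR, 0 with no filter on low counts, and 0 to 1 when 1 sample was left out. With the replicate block, 0, 0 and 5 of the 8 were called, and 112 genes of all differed between the sexes and 49 followed Chat. The library series could not be fitted with that block, since each replicate number lies in 1 series.

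Counts over all genes moved more. Between the sexes, 49 became 166 with DESeq2, 133 with library series as a covariate, 23 against F1/proestrus alone, 32 against F2/metestrus alone, 16 and 13 in the first and second series, 30 without male 5 and F1/proestrus 5, and 25 (without male 5) to 77 (without F1/proestrus 5) when 1 sample was left out. For the association with Chat, 110 became 545 with DESeq2, 64 with group only in the model, 31 and 20 in the first and second series, 67 without both libraries, and 55 (without male 5) to 180 (without male 2) when 1 sample was left out. Between the female groups, 0 became 2 with DESeq2.

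Estimates that changed sign were called in neither fit. Between the female groups, in the first series alone, Ache had -0.023 and Isl1 0.14. Without male 5 and F1/proestrus 5, Isl1 had 0.24 between the female groups and -0.048 between the series. When 1 sample was left out, Isl1 ranged from -0.95 to 0.24 between the female groups and from -0.040 to 0.63 between the series, and Uts2 from -0.46 to 0.15 between the series. For the association with Chat in the first series alone, Scn10a had -0.67, Scn11a -0.039, Prdm12 -0.58, Trpv1 -0.38, Ncmap 0.0018, Pifo -0.12 and Rsph1 -0.063. Without both libraries, Scn10a had -0.98, Scn11a -0.35, Prdm12 -0.13 and Trpv1 -0.063. When 1 sample was left out, Scn10a ranged from -0.76 to 5.69, Scn11a from -0.16 to 3.96, Prdm12 from -0.043 to 3.18, Trpv1 from -0.14 to 2.62, Cldn19 from -0.22 to 0.035 and Ncmap from -0.13 to 0.033. The causes were not tested.

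Low counts limit Mnx1 and Uts2, with 8 and 11 reads in male 5. In a dissected tissue these values cannot tell the amount of ventral tissue from the RNA of its cells, and no sample without formalin was analysed here.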
